A study of Mus musculus with 12 samples.

Results

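Cells labelled OE and EV for Tex10 were compared after 6 days of differentiation into mouse primordial germ cell-like cells (PGCLCs). These are grown in a dish as a model of primordial germ cells, the cells of the embryo from which gametes descend. The comparison used the 2 OE and 2 EV libraries of day 6, which are 4 of the 12 libraries in the series. The other 8 libraries, all of day 2, were EV, OE, DMSO and dTAG13 with 2 each. All are labelled as derived from J1 male mouse embryonic stem cells, and PGCLCs were sorted from embryoid bodies for CD61 (the product of Itgb3) and SSEA1. The Y-linked gene Eif2s3y read 26.9 to 46.3 FPKM in the 8 EV and OE libraries, whereas the 4 DMSO and dTAG13 libraries were listed at 0, which goes against their male label. Those 4 libraries enter no contrast here, only the shared estimate of spread, and with EV and OE libraries alone 2872 genes passed at day 6, including all 448 of the full fit. The libraries were taken by their titles, which give the day, the construct and the replicate number. The labels write EV and OE without spelling them out, and they were read as empty vector and overexpression. No promoter, vector or number of clones is given in the sources used here, and nothing says whether replicates were grown as separate cultures, so p-values measure only the spread between these libraries. Values are FPKM, fragments per kilobase of transcript scaled to sequencing depth, and every change is a difference in log2(FPKM + 1), OE minus EV, which understates the change of low genes.

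Tex10 is a nuclear protein of a complex that takes part in maturation of the large ribosomal subunit, and it is also known as a partner of pluripotency factors at enhancers. PGCLCs form when epiblast-like cells receive BMP signals. They switch on Prdm1, Prdm14 and Tfap2c, regain Nanog and other pluripotency genes, lose the de novo DNA methyltransferases, and later license Dazl, Ddx4 and meiotic genes, many of which are held silent by promoter methylation and Polycomb complexes. Nodal and Wnt signals shape the preceding epiblast state.

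The Tex10 gene (GRCm38 chromosome 4, 48430858 to 48473459, minus strand) read 65.7 and 81.5 FPKM in the EV libraries and 259 and 269 in the OE libraries. Both OE libraries lay far above both EV libraries, a 3.59-fold ratio of the group means. The log2 change was 1.84 (SE 0.15, adjusted p = 0.000862, n = 2 per group), and it ran from 1.68 to 1.99 with each of the 4 libraries left out in turn. A gene-level FPKM does not separate transcripts of an introduced copy from those of the endogenous gene. Of the 8 listed genes of this complex and its maturation partners, only Tex10 passed the threshold in the full fit. With EV and OE libraries alone, 1 of the 8 rose and 1 fell. Wdr18, a subunit of the complex, read 107 and 117 FPKM in EV and 80.6 and 72.9 in OE, a change of -0.53 that did not pass (adjusted p = 0.058). Senp3, Las1l, Pelp1 and Mdn1, further components, changed by 0.09, -0.01, -0.35 and 0.01, none past the threshold. Of 37 tested nucleolar ribosome biogenesis genes 0 passed in limma (3 higher and 1 lower at an unadjusted p below 0.05), and their median change was 0.09.

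Of 12059 genes tested, 448 passed an adjusted p of 0.05 at day 6, which is 3.72%. They were 232 genes higher in OE (1.92%) and 216 lower (1.79%). Of these, 177 changed by at least 1 on the log2 scale, 71 upward and 106 downward. The smallest change that passed was 0.37 in size, and the median over all genes tested was 0.05. Under median-ratio scaling the median of all genes was -0.0037, and 245 genes passed upward and 343 downward, so the higher share of the calls went from 51.8% to 41.7%. With quantile normalization the share was 42.5%.

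Fewer genes passed whichever day 6 library was left out. That group then held 1 library, which was assumed to vary like the libraries of the other groups. In turn, 69 genes (EV library 1), 18 (EV library 2), 24 (OE library 1) and 22 (OE library 2) passed. Without dTAG13 library 1 of day 2, in which 2008 genes were listed at 0 against 18 to 127 in the other 11 libraries, 3046 genes passed, including all 448. That library is not part of the contrast but enters the shared estimate of spread. It stayed in that estimate in the 4 fits with a day 6 library left out. Its part in the calls lost there was not tested. Most genes named here are given with the number of these 4 fits in which they passed. A gene that passed 1 of the 4 did so without EV library 1, except Tuba1a, which did so without OE library 2. A total of 16 genes passed in the full fit and with each of the 4 libraries left out. They were Aoah, Cars2, Coch, Dnmt3l, Ephx2, Fabp3, Id3, Lefty1, Lgals3, Mad2l1, Nedd4, Nkx2-9, Serpine2, Tex10, Trh and Tuba3b. Both OE libraries lay beyond both EV libraries for all 448 called genes, but also for 68.8% of all genes tested. Among the 4 libraries summed FPKM ran from 550230 to 588659 and 18 to 51 genes were listed at 0.

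**Figure D1:**
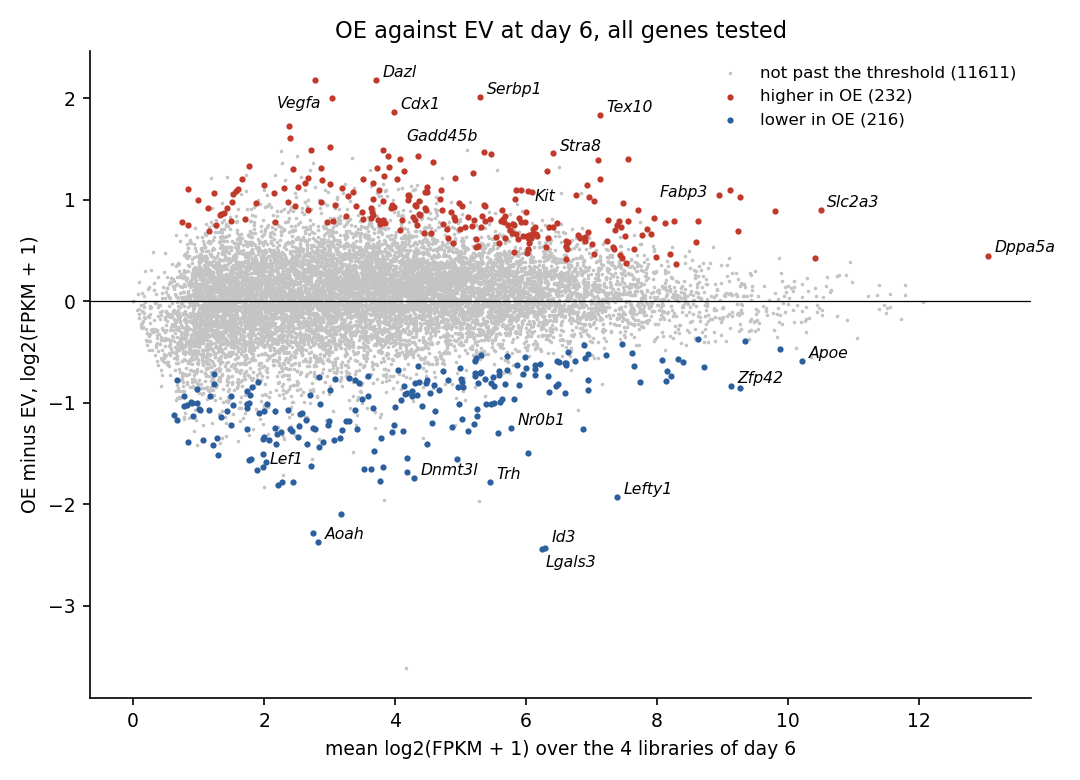
Change at day 6 (OE minus EV, log2(FPKM + 1), vertical axis) against the mean log2(FPKM + 1) of the 4 day 6 libraries (horizontal axis), 1 point per gene tested, with the 232 higher genes in red and the 216 lower genes in blue. Lgals3 and Id3 lie lowest among the coloured points (-2.44 and -2.43), and Dazl lies highest (2.18).

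The labelled cell type was checked against 12 defining PGC markers, all of which were detected in the 4 libraries. Pou5f1, the germline and pluripotency factor, read 780 and 810 FPKM in EV and 773 and 766 in OE. Itgb3, which encodes the sorting marker CD61, was low at 2.40 and 1.72 FPKM in EV and 3.46 and 4.39 in OE, a change of 0.69 that did not pass (adjusted p = 0.247). Of 12 markers Dppa3, Kit and Nanog passed and 0 fell past the threshold. The measured markers of other cells were low with few exceptions, but only part of each list was measured. These were 3 of 10 feeder fibroblast, 6 of 15 endothelium and blood, and 7 of 14 streak and mesoderm markers. For trophoblast and amnion 7 of 13 were measured, and for endoderm 5 of 13. In the order of the 4 libraries (EV 1, EV 2, OE 1, OE 2), summed FPKM over the listed markers was 6.84, 4.98, 6.15 and 6.60 for feeder fibroblasts and 7.82, 7.91, 7.25 and 6.45 for endothelium and blood. It was 17.6, 15.9, 16.2 and 18.6 for primitive streak and mesoderm, and 11.1, 11.6, 12.2 and 11.9 for trophoblast and amnion. The ranges of EV and OE overlapped for fibroblasts and mesoderm. For endothelium and blood both OE sums were below both EV sums, and for trophoblast and amnion both OE sums were above. Macrophage and neural sums, given further on, were lower in both OE libraries than in both EV libraries. In endoderm, where the sums were 11.8, 8.54, 8.32 and 10.7, 1 of 3 tested markers fell, Hnf4a (0 of the 4 fits), at 3.37 and 2.84 FPKM in EV and 1.03 and 1.01 in OE. In bulk RNA, fewer cells of a type and less RNA per cell cannot be told apart.

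The largest increase among genes that passed was in Dazl, a gene of later germ cells. Of 41 tested late germ cell, meiotic and piRNA genes, 3 rose (Dazl, Stra8 and Dmrt1), 2 fell (Xlr3a and Xlr3b) and 36 did not pass. Over all genes tested 1.92% rose and 1.79% fell, and the counts of this and every other list stand beside those shares. The list's median was 0.19 against 0.05 over all genes, and 29 of 41 changes were above 0. Dazl, an RNA-binding protein required for gametogenesis, read 4.82 and 5.53 FPKM in EV and 31.7 and 22.8 in OE. Both OE libraries were several times higher, and the change was 2.18 (SE 0.46, adjusted p = 0.0326). Stra8, the retinoic acid-responsive gatekeeper of meiosis, read 62.3 and 40.5 FPKM in EV and 147 and 134 in OE, a change of 1.46 (SE 0.27, adjusted p = 0.0197). Dmrt1, a DM domain transcription factor of germ cells and testis, read 6.55 and 8.33 FPKM in EV and 23.4 and 21.7 in OE, a change of 1.49 (SE 0.34, adjusted p = 0.0414). The groups did not overlap for any of these 3 genes. With 1 day 6 library left out, each of the 3 lost its call in all 4 fits (Dazl 1.95 to 2.41, Stra8 1.16 to 1.77, Dmrt1 1.33 to 1.64), and 0 list members passed. Without dTAG13 library 1 of day 2, 14 members rose and 3 fell.

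Other members of this list gave smaller differences that did not pass. Ddx4, the germ cell RNA helicase, read 7.56 and 9.60 FPKM in EV and 16 and 14.3 in OE (0.76, adjusted p = 0.18). Mov10l1, a helicase of piRNA formation, read 3.59 and 3.71 FPKM in EV and 10.3 and 8.14 in OE (1.13, adjusted p = 0.32). Mael, a piRNA pathway gene, read 5.71 and 5.86 FPKM in EV and 9.01 and 9.45 in OE (0.59, adjusted p = 0.63). For each of these 3 genes both OE libraries were above both EV libraries. Sycp3, of the synaptonemal complex that holds paired chromosomes, differed by 0.45 (adjusted p = 0.728), and Sycp1, of the same structure, stayed under 1 FPKM in every day 6 library. Xlr3a and Xlr3b, near-identical X-linked copies whose reads may be shared, fell by 0.97 and 1.25. Xlr3b read 9.39 and 9.79 FPKM in EV and 3.61 and 3.27 in OE. Of 6 tested Rhox genes, an X-linked homeobox cluster of reproductive tissue, 0 passed in limma (1 higher and 2 lower at an unadjusted p below 0.05), and their median was -0.56.

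The promoters of Dazl and Stra8 are shown because these germ cell genes were 2 of the 3 late germ cell genes that rose, with no entry for Dmrt1, and that of Id3 because it had the smallest p of all genes and fell. Each is 250 bases before to 50 after the RefSeq start on GRCm38.p6, written 5′ to 3′ on the gene's strand, with CG dinucleotides in capitals. The windows are chr17:50293571-50293870 on the minus strand, chr6:34920698-34920997 on the plus strand and chr4:136143572-136143871 on the plus strand.
Dazl: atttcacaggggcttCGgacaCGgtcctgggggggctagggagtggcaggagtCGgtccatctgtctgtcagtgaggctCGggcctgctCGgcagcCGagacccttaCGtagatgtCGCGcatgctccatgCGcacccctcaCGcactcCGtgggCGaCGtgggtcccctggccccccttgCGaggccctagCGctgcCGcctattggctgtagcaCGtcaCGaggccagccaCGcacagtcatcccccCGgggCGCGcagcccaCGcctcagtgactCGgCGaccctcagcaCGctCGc
Stra8: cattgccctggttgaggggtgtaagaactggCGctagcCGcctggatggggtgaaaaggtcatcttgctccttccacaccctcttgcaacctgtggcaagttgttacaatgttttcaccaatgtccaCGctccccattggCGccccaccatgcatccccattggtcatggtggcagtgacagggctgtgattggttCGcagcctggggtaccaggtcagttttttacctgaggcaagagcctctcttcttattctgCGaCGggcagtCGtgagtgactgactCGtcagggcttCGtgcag
Id3: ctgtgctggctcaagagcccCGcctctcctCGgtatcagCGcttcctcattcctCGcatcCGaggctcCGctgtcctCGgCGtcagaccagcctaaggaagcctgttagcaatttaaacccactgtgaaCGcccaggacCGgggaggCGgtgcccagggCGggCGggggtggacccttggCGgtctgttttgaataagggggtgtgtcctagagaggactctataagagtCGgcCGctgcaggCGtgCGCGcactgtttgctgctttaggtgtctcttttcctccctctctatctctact
The Dazl window holds 28 CG, that of Stra8 10 and that of Id3 19, against a median of 22 over 9182 tested genes with an entry. The median was 23 for 189 higher genes and 15 for 152 lower genes. The E-box CACGTG, read by MGA and MAX, was searched on both strands and stood in 12.3% of tested genes, 12.7% of higher genes, 7.89% of lower genes and 12 of 36 late germ cell genes (33.3%), but in none of these 3 windows. The letters GGCGCC stood in the Stra8 window and in 24.7% of tested genes. A match is a description of letters in this window only, and 27025 promoters in all held the E-box in 8.09%.

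Among 19 tested genes of germ cell specification, 3 rose (Dppa3, Kit and Dppa5a), 0 fell in limma, and the median change was 0.21. At an unadjusted p below 0.05, 8 were higher and 2 lower. Dppa3, also called Stella, marks nascent germ cells and guards maternal methylation in the zygote. It read 7.05 and 9.63 FPKM in EV and 21.2 and 20.4 in OE, a change of 1.24 (SE 0.19, adjusted p = 0.00974). Kit, the receptor through which germ cells receive survival signals, read 46.7 and 41.4 FPKM in EV and 96.0 and 92.6 in OE, a change of 1.08 (SE 0.15, adjusted p = 0.00712). The 2 OE libraries were close to each other in both genes and about double the EV level or more. Dppa5a, an RNA-binding protein of pluripotent and germ cells, was by far the most abundant of the 3 at 7718 and 6903 FPKM in EV and 9934 and 10023 in OE (0.45, adjusted p = 0.0313). Its call was lost with quantile normalization (adjusted p = 1) and median-ratio scaling (adjusted p = 0.137). With a day 6 library left out, Kit passed 1 of the 4 fits (0.999 to 1.17 over them), and Dppa3 (1.04 to 1.44) and Dppa5a passed 0.

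The specifying factors themselves did not pass in the full fit. Without dTAG13 library 1 of day 2, 7 of the 19 specification genes rose and 2 fell. Prdm14, a repressor of somatic and methylation genes, read 26 and 23.9 FPKM in EV and 35.3 and 36.6 in OE (0.51, adjusted p = 0.0874). Tfap2c read 40.1 and 36.7 FPKM in EV and 52.1 and 49.1 in OE (0.39, adjusted p = 0.312). Prdm1, which encodes BLIMP1, was near 5 FPKM in all 4 libraries (0.05, adjusted p = 0.94). Nanos3, which protects migrating germ cells from death, pointed the other way at 9.22 and 6.29 FPKM in EV and 3.89 and 2.84 in OE, a change of -0.99 that did not pass (adjusted p = 0.104).

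**Figure D2:**
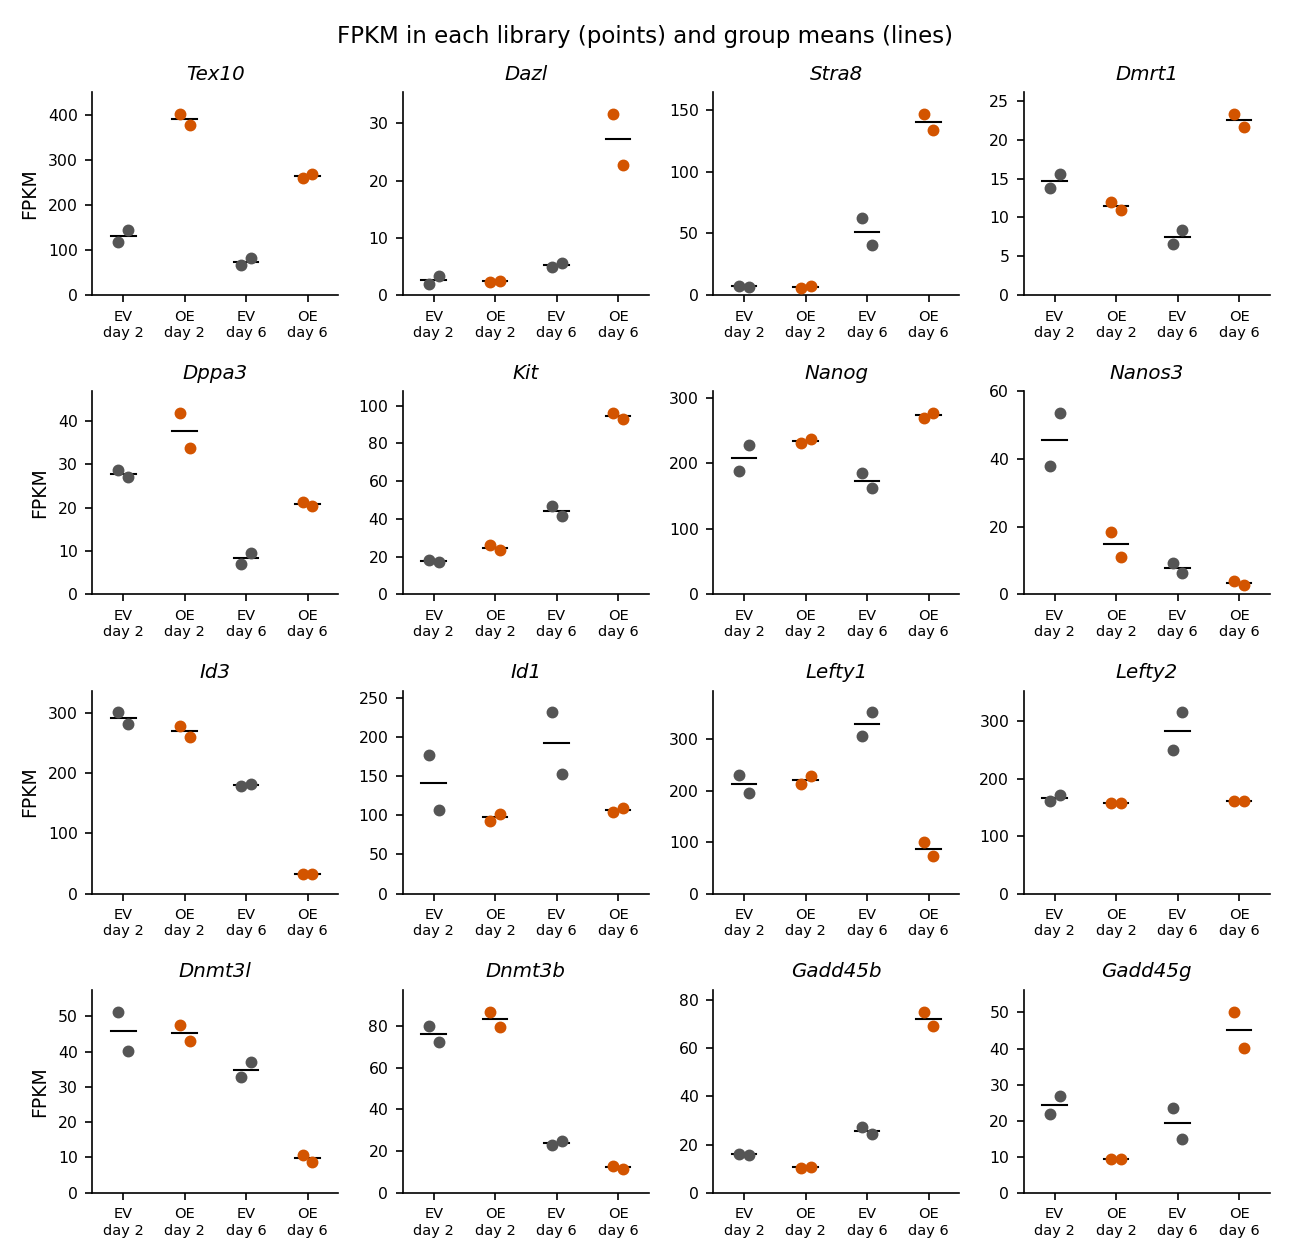
FPKM (vertical axes, each from 0) of 16 genes in the EV (grey) and OE (orange) libraries of day 2 and day 6; points are libraries and lines are means of 2. Dazl, Stra8 and Kit are highest in day 6 OE, Id3 and Dnmt3l are lowest there, and Tex10 is higher in OE at both days.

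Most core pluripotency genes did not pass. Of 17 tested, 2 rose (Nanog and Cdh1), 0 fell in limma (3 higher and 3 lower at an unadjusted p below 0.05), and the median was -0.03. Nanog, a homeobox factor of pluripotency and germ cells, read 184 and 163 FPKM in EV and 269 and 277 in OE, a change of 0.65 (SE 0.14, adjusted p = 0.0313). Cdh1, the epithelial cadherin, read 140 and 115 FPKM in EV and 260 and 238 in OE, a change of 0.96 (adjusted p = 0.0113). Sox2 changed by -0.03 and Pou5f1 by -0.05. Of 21 naive pluripotency genes, which mark the ground state of embryonic stem cells, 1 rose and 2 fell, with a median of 0.23. Tfcp2l1, a naive factor, rose by 0.71. Zfp42 (Rex1) fell by 0.83, from 722 and 771 FPKM in EV to 431 and 408 in OE, and Nr0b1 (Dax1) fell by 1.25, from 75.7 and 91.8 to 35.2 and 34.0. Zfp42 lies in a run of lower genes on chromosome 8, and Nanog and Dppa3 lie in a run of higher genes on chromosome 6, both described further on. With a library left out, Cdh1 and Zfp42 passed 1 of the 4 fits, and Nanog (0.56 to 0.75), Tfcp2l1 and Nr0b1 passed 0.

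The de novo DNA methylation genes Dnmt3l and Dnmt3b fell, and 3 GADD45 genes rose. Of 22 tested genes that write, erase or read DNA methylation, 3 rose and 2 fell, with a median of 0.00. Dnmt3l (chromosome 10, 78041947 to 78063622), the cofactor of de novo methyltransferases, read 32.7 and 37.0 FPKM in EV and 10.6 and 8.83 in OE, a change of -1.74 (SE 0.15, adjusted p = 0.00106). Dnmt3b, a de novo methyltransferase, read 22.9 and 24.8 FPKM in EV and 13 and 11.6 in OE, a change of -0.90 (SE 0.13, adjusted p = 0.00712). In the 4 fits that left out a day 6 library, Dnmt3l passed all 4 fits (-1.86 to -1.62) and Dnmt3b 1 (-0.98 to -0.83). The third de novo gene, Dnmt3a, read 8.70 and 11.2 FPKM in EV and 10.7 and 9.60 in OE, overlapping groups (0.04, adjusted p = 0.964). The maintenance genes Dnmt1 and Uhrf1 changed by 0.08 and -0.01, and Tet1, an eraser, by 0.56 (adjusted p = 0.141).

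The GADD45 proteins are stress sensors that have been tied to DNA demethylation, and their 3 genes, Gadd45a, Gadd45b and Gadd45g, rose. The list of 4 also held a gene that does not encode a GADD45 protein, which did not pass. Gadd45b read 27.2 and 24.2 FPKM in EV and 75.2 and 69.2 in OE, a change of 1.45 (SE 0.17, adjusted p = 0.00355). Gadd45g read 23.6 and 15 FPKM in EV and 50.3 and 40.2 in OE, a change of 1.21 (SE 0.20, adjusted p = 0.0141). Gadd45a rose by 0.76 (adjusted p = 0.0381) and lies in a run of higher genes on chromosome 6. With a library left out, Gadd45b (1.38 to 1.54) and Gadd45g (0.90 to 1.52) passed 1 of the 4 fits and Gadd45a 0. Dnmt3b and Dnmt3l are also formative pluripotency genes, and of 13 tested members of that list 0 rose and 3 fell in limma, as at an unadjusted p below 0.05, with a median of -0.28. The third was Grhl2, an epithelial transcription factor, at 3.60 and 3.99 FPKM in EV and 1.4 and 1.23 in OE, and it passed 0 of the 4 fits. Otx2, which opposes germ cell entry, read 14.3 and 15.3 FPKM in EV and 11.7 and 9.997 in OE (-0.42, adjusted p = 0.38).

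Among the listed BMP genes only the ligand Bmp4 and the target Id3 passed, and both fell. Of 6 tested ligands, receptors and antagonists 0 rose and 1 fell, with a median of 0.04 and changes from -0.77 to 0.90. Their summed FPKM was 69.1 and 82.9 in EV and 84.8 and 85.2 in OE. Of 14 effectors and targets 0 rose and 1 fell, with a median of 0.11. At an unadjusted p below 0.05 in limma, 1 and 1 of the former and 1 and 2 of the latter were higher and lower. Bmp4 read 23.6 and 33.6 FPKM in EV and 16.7 and 15.5 in OE, a change of -0.77 (SE 0.17, adjusted p = 0.0418), and passed 0 of the 4 fits with a library left out. Id3, an inhibitor of basic helix-loop-helix factors and a direct BMP target, read 180 and 183 FPKM in EV and 33.1 and 32.6 in OE. It was 5.52-fold lower in OE, with libraries of a group nearly equal, and the change was -2.43 (SE 0.09, adjusted p = 2.57e-06), or -2.44 to -2.41 with each library left out. Id1, its relative and also a BMP target, read 232 and 154 FPKM in EV and 104 and 110 in OE, apart but not past the threshold (-0.81, adjusted p = 0.0902). Id2 read 84.0 and 63.0 FPKM in EV and 56.4 and 65.4 in OE, overlapping groups (-0.26, adjusted p = 0.729). The receptor Bmpr1a and the effector Smad5 changed by -0.11 and 0.17, and Smad1 by 0.49 (adjusted p = 0.141).

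The Nodal feedback genes Lefty1 and Lefty2 fell, while the ligand and its co-receptor did not pass. Lefty1 (chromosome 1, 180935022 to 180938400), a secreted Nodal inhibitor that Nodal itself induces, read 305 and 352 FPKM in EV and 99.2 and 73.1 in OE. It was 3.81-fold lower, a change of -1.93 (SE 0.19, adjusted p = 0.0015), and it passed all 4 fits with a library left out (-2.15 to -1.71). Lefty2, the neighbouring paralog, read 250 and 316 FPKM in EV and 162 and 161 in OE, a change of -0.79 (SE 0.11, adjusted p = 0.00764). Reads of these related genes may be partly shared. Tgif1, a repressor of SMAD activity, rose by 0.46. Of 14 tested effectors and targets 1 rose and 3 fell, yet the median was 0.24. In the 4 fits that left out a day 6 library, Lefty2 passed once (-0.96 to -0.63), and Tgif1 passed 0. Nodal read 15.5 and 13.8 FPKM in EV and 18.4 and 17.7 in OE (0.29, adjusted p = 0.463), and the co-receptor gene Tdgf1 1252 and 1339 FPKM in EV and 1375 and 1468 in OE (0.13, adjusted p = 0.707). Of 12 ligands and receptors only Tgfbr2, the type II TGF-beta receptor, rose, from 0.361 and 0.213 to 1.16 and 1.26 FPKM, and it passed 0 of those fits.

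Wnt targets changed in both directions, and the Wnt component, FGF and immediate early genes that passed were lower. Of 24 tested Wnt components 0 rose and 2 fell in limma (1 higher and 3 lower at an unadjusted p below 0.05). Lef1, a DNA-binding effector of Wnt, read 5.09 and 6.99 FPKM in EV and 1.32 and 1.2 in OE (-1.63, adjusted p = 0.0157), and Porcn, the enzyme that acylates Wnt ligands, 32.4 and 36.7 FPKM in EV and 16.9 and 14.6 in OE (-1.08, adjusted p = 0.0113). Of 11 tested Wnt targets 2 rose and 2 fell. Cdx1, a posterior homeobox gene, read 8.35 and 6.37 FPKM in EV and 26.4 and 32.1 in OE (1.86, SE 0.37, adjusted p = 0.0264), and Ccnd1, the G1 cyclin D1, rose by 0.92. Myc, the growth factor-responsive transcription factor, fell by 1.37, with EV libraries at 8.92 and 17.2 and OE libraries at 5.06 and 3.45. Lef1 is the other target that fell. Egr1 and Fosl1, immediate early factors, fell by 1.29 and 1.16, and with Myc they were the 3 of 14 tested immediate early and YAP target genes that passed. Of 22 FGF and ERK genes Egr1 alone passed. Fgf4 read 105 and 103 FPKM in EV and 143 and 159 in OE (0.53, adjusted p = 0.109), and Spry4, an ERK feedback gene, 12.5 and 17.8 FPKM in EV and 7.49 and 6.45 in OE (-1.0, adjusted p = 0.109). With a library left out, Egr1 and Myc passed 1 of the 4 fits, and Lef1 (-1.82 to -1.43), Porcn, Cdx1 (1.69 to 2.03), Ccnd1 and Fosl1 passed 0.

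**Figure D3:**
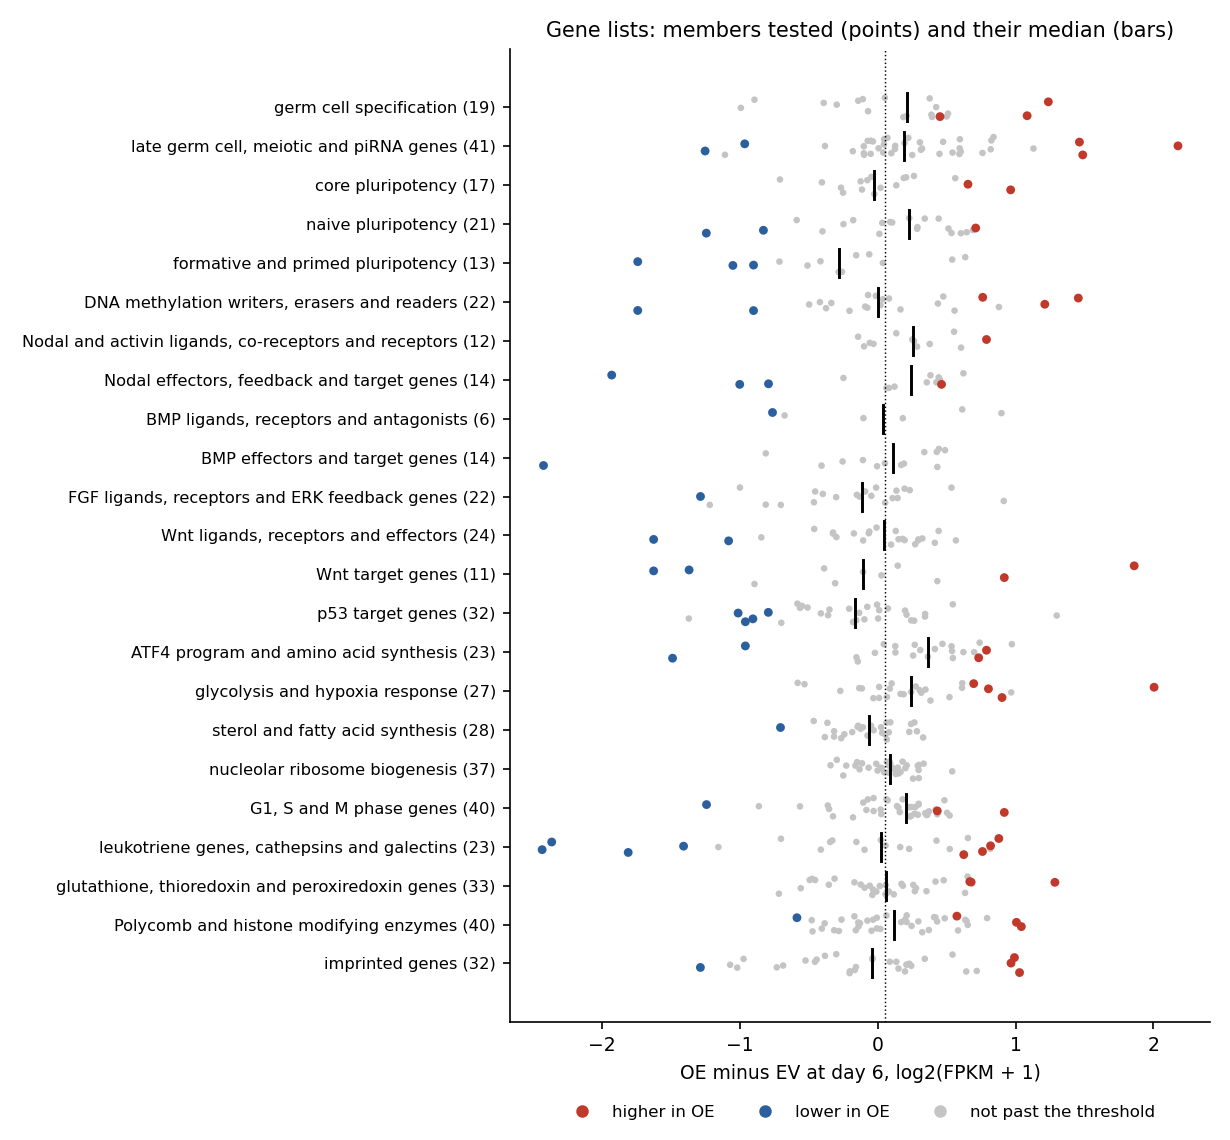
Change at day 6 (OE minus EV, log2(FPKM + 1), horizontal axis) of the tested members of 23 gene lists (rows, number tested in brackets); red and blue points passed the threshold, black bars are list medians, and the dotted line is the median of all genes tested (0.05). Most members of each list lie within 1 of 0, and red and blue points stand in several of the same rows.

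Glycolytic genes that passed were all higher. Of 27 tested genes of glycolysis and the hypoxia response 4 rose, 0 fell in limma (7 higher and 0 lower at an unadjusted p below 0.05), and the median was 0.24. Slc2a3, the glucose transporter GLUT3, read 1167 and 959 FPKM in EV and 1973 and 1981 in OE, a change of 0.90 (SE 0.12, adjusted p = 0.00602). Hk1, hexokinase, and Gpi1, glucose phosphate isomerase, act on glucose next and rose by 0.80 and 0.70. Vegfa, a hypoxia-induced growth factor, read 2.83 and 3.38 FPKM in EV and 15.2 and 15.7 in OE, a change of 2.00 (SE 0.24, adjusted p = 0.00381). Ldhb, a lactate dehydrogenase subunit outside that list, read 445 and 325 FPKM in EV and 836 and 791 in OE (1.09, adjusted p = 0.00602). Slc2a3 and Ldhb lie in runs of higher genes on chromosome 6. In the 4 fits that left out a day 6 library, 0 to 3 list members passed (Slc2a3, Gpi1 and Vegfa in 1 of the 4 fits, Hk1 in 0), and Ldhb passed 1. Among other abundant genes, Fabp3, a fatty acid-binding protein, rose from 356 and 329 to 716 and 696 (1.04, adjusted p = 0.00124, kept with each library left out), and Cd9, a tetraspanin, from 476 and 389 to 878 and 881 (1.03). Igfbp2, which binds insulin-like growth factors, rose by 0.89. It passed 1 of the 4 fits, and Cd9 0.

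Of 23 tested ATF4 and amino acid genes 2 rose and 2 fell, with a median of 0.36 and 18 changes above 0. Asns, asparagine synthetase, and Psat1, of serine synthesis, rose by 0.79 and 0.73. Slc7a3, a cationic amino acid transporter, fell by 1.49, from 91.7 and 130 FPKM to 41.8 and 34.9. Sesn2, a stress-induced regulator of growth signalling that both ATF4 and p53 drive, read 75.5 and 79.2 FPKM in EV and 39.5 and 38.9 in OE, a change of -0.96 (SE 0.11, adjusted p = 0.00355). With a library left out, Sesn2 and Slc7a3 passed 1 of the 4 fits, and Asns and Psat1 passed 0. Without dTAG13 library 1 of day 2, 12 members of this list rose and 2 fell.

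Of 32 tested p53 targets 0 rose and 4 fell in limma (2 higher and 9 lower at an unadjusted p below 0.05), with a median of -0.17. Sesn2 was 1 of them. Plk2, a stress-induced kinase, read 58.8 and 58.0 FPKM in EV and 28.0 and 28.8 in OE, a change of -1.01 (SE 0.13, adjusted p = 0.00511). Btg2, an antiproliferative gene, read 30.6 in both EV libraries and 15.2 and 16.5 in OE (-0.91). Dcxr, a carbonyl reductase, fell by 0.80 and lost its call under median-ratio scaling (adjusted p = 0.0511). Changes over the list ran from -1.37 to 1.30, both ends without passing, and 11 of 32 were above 0. The canonical targets Cdkn1a and Mdm2 changed by 0.24 and -0.16, and Trp53 itself by -0.14, none past the threshold. With a day 6 library left out 0 to 1 members fell (Sesn2 in 1 of the 4 fits, Plk2, Btg2 and Dcxr in 0), and without dTAG13 library 1 of day 2, 12 fell and 2 rose.

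Lgals3, Aoah and 2 leukotriene genes fell and 4 lysosomal genes rose within 1 list of 23 tested genes. Lgals3, galectin-3, read 147 and 208 FPKM in EV and 31.4 and 31.7 in OE. The change was -2.44 (SE 0.15, adjusted p = 0.000102), and it passed with each library left out (-2.69 to -2.19). Aoah, a lipase that deacylates bacterial lipopolysaccharide, read 14.0 and 16.2 FPKM in EV and 1.95 and 2.29 in OE (-2.37, adjusted p = 0.00157), also kept with each library left out. Alox5ap, the partner of 5-lipoxygenase, read 8.85 and 6.73 FPKM in EV and 1.30 and 1.68 in OE (-1.81), and Alox5, the lipoxygenase itself, fell by 1.41. These genes are known from myeloid cells, so macrophage markers are given beside them. Of 9 listed markers 4 were measured, summing to 53 and 50.1 FPKM in EV and 32.3 and 29.5 in OE, and nearly all of it was Cd68, a lysosomal protein, at 48.8 and 45.8 FPKM in EV and 29.6 and 26.4 in OE (-0.74, adjusted p = 0.0235). Spi1, the defining myeloid factor, read 1.14 and 1.59 FPKM in EV and 1.38 and 1.29 in OE, and Fcer1g 1.4 and 1.08 FPKM in EV and 0.981 and 1.25 in OE. Itgam read 1.68 and 1.64 FPKM in EV and 0.372 and 0.523 in OE. Adgre1, Csf1r, Aif1, Tyrobp and Lyz2 were not found by these names among the genes with values, so they could not be examined. The part of such cells in the result was not tested. Ctsa, Ctsb and Ctsc, lysosomal cathepsins, rose by 0.62, 0.82 and 0.88, and Hexa, a lysosomal hexosaminidase, by 0.76. In the 4 fits that left out a day 6 library, Lgals3 and Aoah were the 2 list members that passed in each fit, and the other 6 passed 0, as did Cd68. Ctsb read 44.5 and 43.4 FPKM in EV and 78.9 and 77.6 in OE.

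Chromatin, imprinted, cell cycle and redox genes were described as lists, against 3.72% of all genes called. Of 40 tested Polycomb and histone modifying genes 3 rose and 1 fell. Ezh2, the methyltransferase of Polycomb complex PRC2, read 37.2 and 39.6 FPKM in EV and 56.4 and 58.9 in OE (0.57, adjusted p = 0.0189). E2f6, a DNA-binding repressor that silences germ cell genes, rose by 1.04, from 5.09 and 6.50 to 12.8 and 13. L3mbtl2, which works with E2f6 in a variant PRC1 complex, fell by 0.59. Suv39h1, a histone H3 methyltransferase of heterochromatin, rose by 1.01. Of 32 imprinted genes 3 rose (Phlda2 by 0.99, Copg2 by 0.97 and Slc38a4 by 1.03) and Grb10, a growth inhibitor, fell by 1.29. Of 40 cell cycle genes Ccnd1 and Aurka rose and Cdkn2b, which encodes the inhibitor p15, fell by 1.24. Of 33 redox genes 3 rose, Txnip by 1.28, Txn1 by 0.67 and Txnrd1 by 0.68. Txnip, an inhibitor of thioredoxin, read 54.9 and 46.4 FPKM in EV and 122 and 127 in OE. With a library left out, Phlda2, Copg2 and Txnip passed 1 of the 4 fits, and Ezh2, E2f6, L3mbtl2, Suv39h1, Slc38a4, Grb10, Cdkn2b, Aurka, Txn1 and Txnrd1 passed 0.

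Cell shape genes and other large changes followed. Of 18 mesenchymal genes only Vim, an intermediate filament, passed, falling by 1.06 from 51.4 and 56.3 FPKM to 27.9 and 22.8. Of 21 epithelial genes Cdh1 and the junction gene Cldn7 rose and Grhl2 and Lgals3 fell, though Cldn7 lost its call under median-ratio scaling (adjusted p = 0.0529). Of 16 tubulin genes Tuba3a and Tuba3b rose by 1.4 and 2.18 and Tuba1a fell by 0.79. Tuba3a and Tuba3b are near-identical copies, so how their reads were divided is uncertain. Trh, which encodes thyrotropin-releasing hormone, read 68.6 and 92.8 FPKM in EV and 26.5 and 19.3 in OE (-1.78, adjusted p = 0.0015). Nkx2-9, a homeobox gene, fell by 2.28 and Coch, a secreted protein of the inner ear, by 1.68, and both passed all 4 fits with a library left out, as Trh and Tuba3b did. Zfp42, Hspb1, Apoe, Hypk, Stmn1 and Tipin were among the most abundant genes that fell. Apoe, the lipid carrier, read 1583 and 1342 FPKM in EV and 1018 and 921 in OE (-0.59, adjusted p = 0.0117). Hspb1, a small heat shock protein, fell by 0.85 and lost its call under median-ratio scaling (adjusted p = 0.0688). In the 4 fits that left out a day 6 library, Tuba1a and Zfp42 passed once, and Vim, Cldn7, Grhl2, Tuba3a, Apoe, Hspb1, Hypk, Stmn1 and Tipin passed 0.

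Effects of OE at day 6 were set against those at day 2, which used different libraries. At day 2, 102 genes passed (0.846%), and 38 genes passed at both days, 36 of them in the same direction. These 38 were 8.48% of the day 6 calls and 37.3% of the day 2 calls. Among the 448 genes, 71.9% had the same sign at day 2, against 57.3% of all genes tested. The higher genes had a median change of 0.84 at day 6 and 0.21 at day 2, and the lower genes -0.99 and -0.20. In the test of the difference itself 28 genes passed (0.232%), 8 with a higher and 20 with a lower effect at day 6, and 23 of the 28 were among the day 6 calls. With 1 library left out in turn, 2 to 7 genes passed, and without dTAG13 library 1 of day 2, 1339.

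Id3, Lefty1 and Dnmt3l were near level between OE and EV at day 2 and lower in OE at day 6. Id3 read 302 and 283 FPKM in EV and 280 and 260 in OE at day 2, a change of -0.11, and the difference of the effects was -2.32 (SE 0.13, adjusted p = 0.000117). For Lefty1 the difference was -1.99 (adjusted p = 0.0229), with 230 and 195 FPKM in EV and 213 and 228 in OE at day 2. For Dnmt3l it was -1.74 (adjusted p = 0.0165). Trh was higher in OE at day 2, at 135 and 133 against 296 and 316, and lower at day 6, a difference of -2.96 (adjusted p = 0.00149). Gadd45g and Gadd45b went the other way, with day 2 changes of -1.29 and -0.55 and differences of 2.5 (adjusted p = 0.0155) and 2.00 (adjusted p = 0.0165). Dazl, Stra8 and Dmrt1 changed by -0.06, -0.08 and -0.33 at day 2. Their differences between the days were 2.24, 1.55 and 1.82, and none passed (adjusted p = 0.222, 0.143 and 0.168). Cdx1 changed by 1.82 at day 2, not past the threshold (adjusted p = 0.06), and by 1.86 at day 6.

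**Figure D4:**
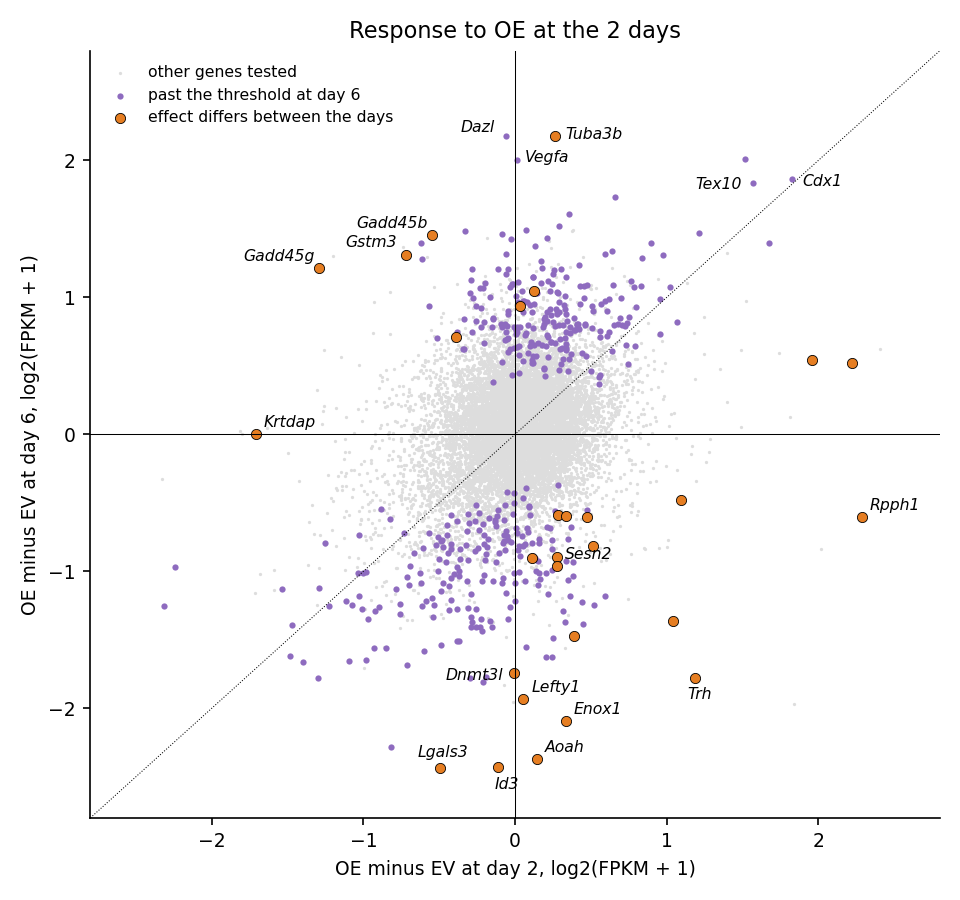
Change with OE at day 6 (vertical axis) against that at day 2 (horizontal axis), both as log2(FPKM + 1), 1 point per gene tested; purple points passed at day 6 and orange points passed the test of the difference between days. Id3, Lefty1, Dnmt3l and Aoah lie near 0 at day 2 and between -2.43 and -1.74 at day 6, while Tex10 and Cdx1 lie near the dotted line of equal change.

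Differences also ran together along chromosomes 6 and 8. Runs were placed where the median over 9 neighbouring genes was beyond 0.4 or -0.4 at day 6. Stretches of the same sign with fewer than 9 genes between them were joined, so a run can hold windows inside the threshold, and joined stretches of at least 9 genes were kept. Their counts thus describe the same values. On chromosome 6, 4 runs held 74 tested genes, of which 15 rose and 0 fell, and on chromosome 8, 3 runs held 93 genes, of which 0 rose and 11 fell. Chromosomes 9 and 19 held 1 run each, of 15 and 10 genes, of which 1 and 2 rose. The steepest run, GRCm38 chromosome 6 from 65042583 to 70905245, held 9 tested genes with a median change of 1.07 at day 6 and 0.94 at day 2. Among them Mad2l1, a spindle checkpoint gene, read 21.8 and 25.5 FPKM in EV and 69.4 and 65.2 in OE (1.47), and Serbp1, an RNA-binding ribosome factor, 15.5 and 22.4 FPKM in EV and 87.4 and 70.1 in OE (2.01). With a library left out Mad2l1 passed all 4 fits and Serbp1 0 (1.76 to 2.26). Gng12 and Gadd45a lie there too. Nanog, Dppa3, Slc2a3 and Bid lie in a run from 120836212 to 122888941 with a median of 0.52, and Ldhb and Tuba3b in one from 142387221 to 145621479 with a median of 0.77. On chromosome 8 the runs from 3122061 to 11835219 and from 13338751 to 25785287 had medians of -0.51 and -0.44 at day 6 and -0.40 and -0.49 at day 2. Zfp42 lies in the third, 41017468 to 46005707. The part of these runs in the changes of their genes was not tested. Over all of chromosome 6, runs included, 31 of 519 tested genes rose (5.97%) and 9 fell (1.73%), with a median of 0.19. Over chromosome 8, 7 of 655 rose (1.07%) and 18 fell (2.75%), with a median of -0.08. Over all genes tested 1.92% rose and 1.79% fell, with a median of 0.05. Without the genes of the runs on chromosomes 6 and 8, 407 genes passed, 208 higher and 199 lower. That fit kept chromosome 6 genes outside the runs. Among them Stra8, Ezh2, Asns, Copg2, Cd9 and Tuba3a rose and Alox5 fell.

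**Figure D5:**
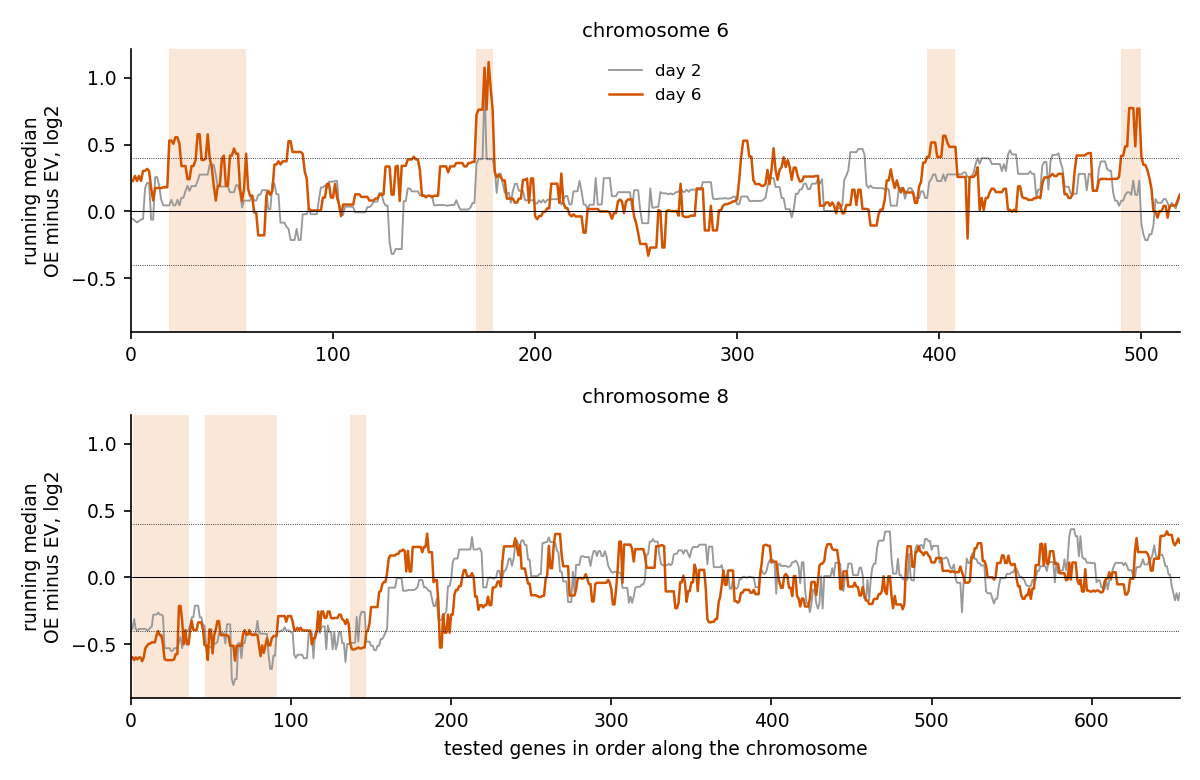
Running median over 9 tested genes of the OE minus EV change (log2(FPKM + 1), vertical axes) at day 6 (orange) and day 2 (grey), along the order of tested genes on chromosomes 6 and 8 (horizontal axes); shaded spans are the runs and dotted lines stand at 0.4 and -0.4. The line for chromosome 8 is below 0 at both days over its first genes, and the tallest peak is the run with Mad2l1 and Serbp1 on chromosome 6.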

How the data were processed

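Poly(A)-enriched RNA was sequenced, per the labels. Per the submitters' processing notes, FastQC 0.10.1, Trim Galore 0.6.3, cutadapt, STAR 2.7.6a and Cufflinks 2.2.1 were used with mm10. The deposited table holds the authors' FPKM for 12955 genes in 12 libraries with 1 added, inferred from their digits (90.1% of entries under 2 but above 1.1 showed 7 digits or more, 0% of entries from 2 to 10 did), and that 1 was subtracted. Depth is unknown, so the precision of low values is too.

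Genes that reached 1 FPKM in 2 libraries (12059 of 12955) were tested on log2(FPKM + 1) with limma 3.58.1 (R 4.3.3, trended prior variance) in 1 model of all 6 groups, with 6 residual and 3.86 prior degrees of freedom. Benjamini-Hochberg adjusted p below 0.05 over all tested genes counted as a change. Errors are standard errors from this fit. The analysis was tested on simulated data. Members and lists were chosen with earlier results of these data known. Named genes were Tex10, Itgb3, up to 15 genes per direction by size of change, and up to 6 by abundance above a minimum size of change. Changed list members and genes whose effect differed between days were named too. Other genes given as values, those named for lying in a run or for passing every fit with a library left out, and the chromosome runs were chosen after their values were seen. Positions came from GENCODE M21 (11598 of 12059 genes), promoters from RefSeq (93 of 123 named genes). 1 gene counted in a list is not reported here by name. Alternatives changed the pseudocount, filter, scaling, libraries, block, trend, weights and threshold. Python 3.11.15, pandas 2.3.3, numpy 2.4.6 and matplotlib 3.10.9 were used.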

Additional observations from a re-analysis of the deposited data

Results flagged for a closer look

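For 19 named genes the effect of OE differed between day 6 and day 2 in limma's test of the difference (adjusted p below 0.05). Values are the day 6 effect minus the day 2 effect on the log2 scale. The effect was lower at day 6 for Trh (-2.96), Rpph1 (-2.89), Aoah (-2.51), Enox1 (-2.43), Gm21283 (-2.40), Id3 (-2.32), Lefty1 (-1.99), Lgals3 (-1.94), Dnmt3l (-1.74), Sesn2 (-1.24), Stmn1 (-0.93) and Apoe (-0.87). It was higher for Gadd45g (2.5), Gstm3 (2.03), Gadd45b (2.00), Tuba3b (1.92), Krtdap (1.71), Uqcc2 (1.1) and Fabp3 (0.92). Rpph1, the RNA of ribonuclease P, and Krtdap did not pass at day 6 itself, where they changed by -0.61 and 0.00, and their day 2 changes were 2.29 and -1.71.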

How the results depend on the processing

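None of the 99 named genes that passed changed sign under the alternatives run. The 448 calls at day 6 became 340 and 669 with pseudocounts of 0.1 and 5 and 1048 with quantile normalization. They became 3429 with only the 4 libraries of day 6, 2872 with only EV and OE of both days, 3046 without D2_dTAG replicate 1 and 3897 with array quality weights. They were 821 at an adjusted p of 0.1 and 82 at 0.01, and 18 to 69 with 1 day 6 library left out, which leaves 1 library in that group, assumed to vary like the other groups. The 28 genes whose effect differed between days became 53 with a pseudocount of 5, 151 with quantile normalization and 50 with median-ratio scaling. They became 1172 with only EV and OE, 1339 without D2_dTAG replicate 1, 1275 with array quality weights and 7 without a trend. They were 115 at an adjusted p of 0.1, 3 at 0.01 and 2 to 7 with 1 library left out. The causes were not tested.

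Same-numbered EV and OE libraries deviated with a correlation of -0.12 at day 6 and 0.13 at day 2, so the numbers were not read as pairs. The replicate block gave 372 calls at day 6 and 21 for the difference. Exchanging the numbers of the OE libraries of day 6, chosen after seeing the data, gave 325 and 18. Of 99 named genes that passed, 13 to 36 did so with a day 6 library left out, 98 with quantile normalization, 92 with median-ratio scaling, 86 with the replicate block, 82 with the exchanged numbers, 82 without a trend, and 83 and 97 with pseudocounts of 0.1 and 5. The 2 libraries per group limit every result.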

Other observations

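Dancr, a long noncoding RNA that hosts small nucleolar RNAs, showed the biggest fitted change of all tested genes at day 6 without passing. It read 61.6 FPKM in each EV library and 4.19 and 4.03 in the OE libraries, a change of -3.62 (adjusted p = 0.0536). Its day 2 values were 66.3 and 10.6 FPKM in EV and 19.99 and 7.61 in OE. The gene was chosen after its values were seen.

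Of 15 tested MHC class I and antigen processing genes 0 rose and 1 fell in limma (1 higher and 5 lower at an unadjusted p below 0.05), Tap1, a peptide transporter, from 13.5 and 13.1 FPKM to 4.18 and 6.68 (-1.18, adjusted p = 0.0326). The list's median was -0.26, with 4 of 15 changes above 0. Of 28 sterol and fatty acid synthesis genes 0 rose and 1 fell in limma (1 higher and 5 lower at an unadjusted p below 0.05), Ebp, a sterol isomerase (-0.71, adjusted p = 0.0222), with a median of -0.06. Of 12 BCL2 family genes Bid, a proapoptotic member, rose by 0.52 and lost its call under median-ratio scaling (adjusted p = 0.0576). It alone passed, though changes over that list ran from -0.44 to 1.30. Bid lies in a run of higher genes on chromosome 6. Of 8 tested Hox, Cdx and posterior genes Cdx1 alone passed. With a day 6 library left out, Tap1, Ebp and Bid passed 0 of the 4 fits.

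Summed over the listed markers, neural ectoderm genes read 70.6 and 67.7 FPKM in EV and 51.3 and 49.0 in OE, most of it Tubb3 (65.7 and 63.2 in EV, 46.2 and 44.0 in OE). Cardiac and muscle genes read 75.0 and 60.5 FPKM in EV and 65.8 and 62.0 in OE, most of it Myl7. Gonadal soma genes read 7.53 and 7.09 FPKM in EV and 7.03 and 8.65 in OE. Only 4 of 12 listed neural, 10 of 13 cardiac and muscle, and 4 of 10 gonadal markers were measured. Of the tested members of these 3 lists 0 passed in limma, and 1 neural gene was lower at an unadjusted p below 0.05. The 3 tested Y-linked genes, all detected in EV and OE libraries, changed by -0.09 to 0.22, with 0 past the threshold in limma and 0 at an unadjusted p below 0.05.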
